A study of Danio rerio with 11 samples.

Results

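The fibroblast growth factor (FGF) pathway was examined in zebrafish embryos that lack the T-box transcription factor tbx16 (spadetail, spt). Its members were chosen by gene symbol, as all probe sets whose annotation gives exactly 1 symbol and whose symbol begins with fgf, fgfr, spry, spred, dusp, map2k, map3k, mapk and a digit, etv4, etv5 or il17rd. This gave 70 of the 15502 probe sets tested, which stand for 55 of 8793 named genes. Affymetrix Zebrafish Genome Arrays were used at the 4/5-somite stage and the 21-somite stage, and the question was which members of the pathway differed between spt and wild-type tissue. The spt embryos were homozygous for the b104 allele and the wild-type embryos were spt+/+. Both came from crosses with a line in which a pax2a promoter drives GFP, and no fish was treated. At 4/5 somites the intermediate mesoderm consisted of small numbers of sorted GFP-positive cells, taken after the tissue in front of the first somite had been cut away. Their RNA was amplified in 2 rounds, with 3 spt arrays (replicates 3, 4 and 5) and 2 wild-type arrays (replicates 1 and 2). For single genes at this stage the study itself reported a high rate of false positives. The tail at the 21-somite stage was whole dissected tissue behind the yolk extension without the tip, with unamplified RNA on 3 spt arrays (replicates 4, 5 and 6) and 3 wild-type arrays (replicates 1, 2 and 3). Each replicate pooled embryos, and clutches were separate.

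FGF ligands bind receptor tyrosine kinases together with heparan sulfate and, through RAS and RAF, switch on a relay in which a MAP3K activates a MAP2K and this activates the MAP kinase ERK. Active ERK induces its own inhibitors, such as Sprouty, Spred and dusp6, as well as ETS factors of the etv4 and etv5 kind, and these targets are widely read as a sign of the pathway. In the early zebrafish embryo FGF signals are needed for posterior mesoderm, and tbx16 itself is expressed under their control. The p38 and JNK kinases and their activators, which stress and other signals also use, carry the same gene prefixes and are described apart. Roles were given by gene symbol. Every fgf followed by a number counts as a ligand, fgf13a included, and binding to a receptor was not checked for each. Of the 70 probe sets, 10 were for ligands, 2 for FGF-binding proteins, 6 for receptors, 11 for feedback inhibitors, 4 for ETS factors, 5 for MAP3K, 4 for MAP2K, 13 for MAPK and 9 for other dual-specificity phosphatases. The last 6 share only the letters. They are fgfr1op2, named in human for a gene fusion with a receptor, dusp11, an RNA phosphatase, and spryd4, spryd7a and spryd7b, whose SPRY domain is unrelated to Sprouty.

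All values are signals on a linear scale, quantile normalized within a stage, and fold changes are log2(signal + 16) differences of spt over wild type. Before normalization the median signal was 152 to 167 on spt and 163 to 166 on wild-type arrays of the intermediate mesoderm, and 272 to 293 on spt and 261 to 293 on wild-type arrays of the tail. In the tail, the spt array 4 and the wild-type array 1 deviated from their group means in the same way (r = 0.767 across probe sets, which are not independent), and so, less closely, did the spt array 5 and the wild-type array 2 (r = 0.483) and the spt array 6 and the wild-type array 3 (r = 0.43). The labels do not pair them, and the tail fits hold no block for them. The signal of the brighter tbx16 probe set was 424, 409 and 445 on spt tail arrays and 1485, 958 and 1296 on wild-type tail arrays (log2 difference -1.49, adjusted p = 0.0065, limma). The other read 415, 481 and 456 in spt and 902, 695 and 727 in wild-type tails (-0.75, adjusted p = 0.108, limma). Both were lower on every spt tail array, so the tail arrays matched their labels. In the intermediate mesoderm tbx16 lay near the level of dim probe sets in both groups and checks nothing. Marker genes of blood were lower in spt, at 5 of 5 genes in each stage. Their summed signal was 5005 to 6968 in spt and 19915 to 22348 in wild-type intermediate mesoderm, with none of them at 0. The authors had left out a further wild-type array of this stage, which did not cluster with these 2. They found far lower red blood cell markers on it. The blood difference in the sorted cells therefore depends in part on that choice, and the spread of wild type may be understated. Of 4 intermediate mesoderm and pronephros markers, 2 were higher and 2 lower in the sorted spt cells. The brighter probe set of pax2a read 1012, 1293 and 517 in spt and 268 and 267 in wild type. The gene lhx1a was also higher, while pax8 (log2 fold change -0.25) and cdh17 (-0.51) were lower with overlap.

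No member passed the test in either stage. In intermediate mesoderm 0 of 70 members had an adjusted p under 0.05, as did 0% of all probe sets, and the smallest adjusted p among members was 0.383. In the tail 0 of 70 passed, where 0.69% of all probe sets did, and the smallest was 0.0623. At an unadjusted p under 0.05, a weaker rule with no adjustment, 7 members (10%) were higher in spt intermediate mesoderm against 3.57% of all probe sets, and 2 (2.86%) were lower against 3.63%. The 7 include fgfr1op2, which only shares letters with the pathway, and map3k4, whose other probe set was lower in spt with overlap. In the tail 2 members (2.86%) were higher against 3.91%, and 2 (2.86%) were lower against 3.54%. The median log2 fold change of the members was 0.05 in intermediate mesoderm and 0.01 in tail, beside -0.01 and 0.00 for all probe sets. The median standard error was 0.25 in intermediate mesoderm and 0.19 in tail, and differences of these sizes or smaller could not be resolved. Much larger ones could also miss the threshold. In intermediate mesoderm the blood gene hbae3, with a log2 fold change of -5.37, had an adjusted p of 0.0634 (limma).

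**Figure D1:**
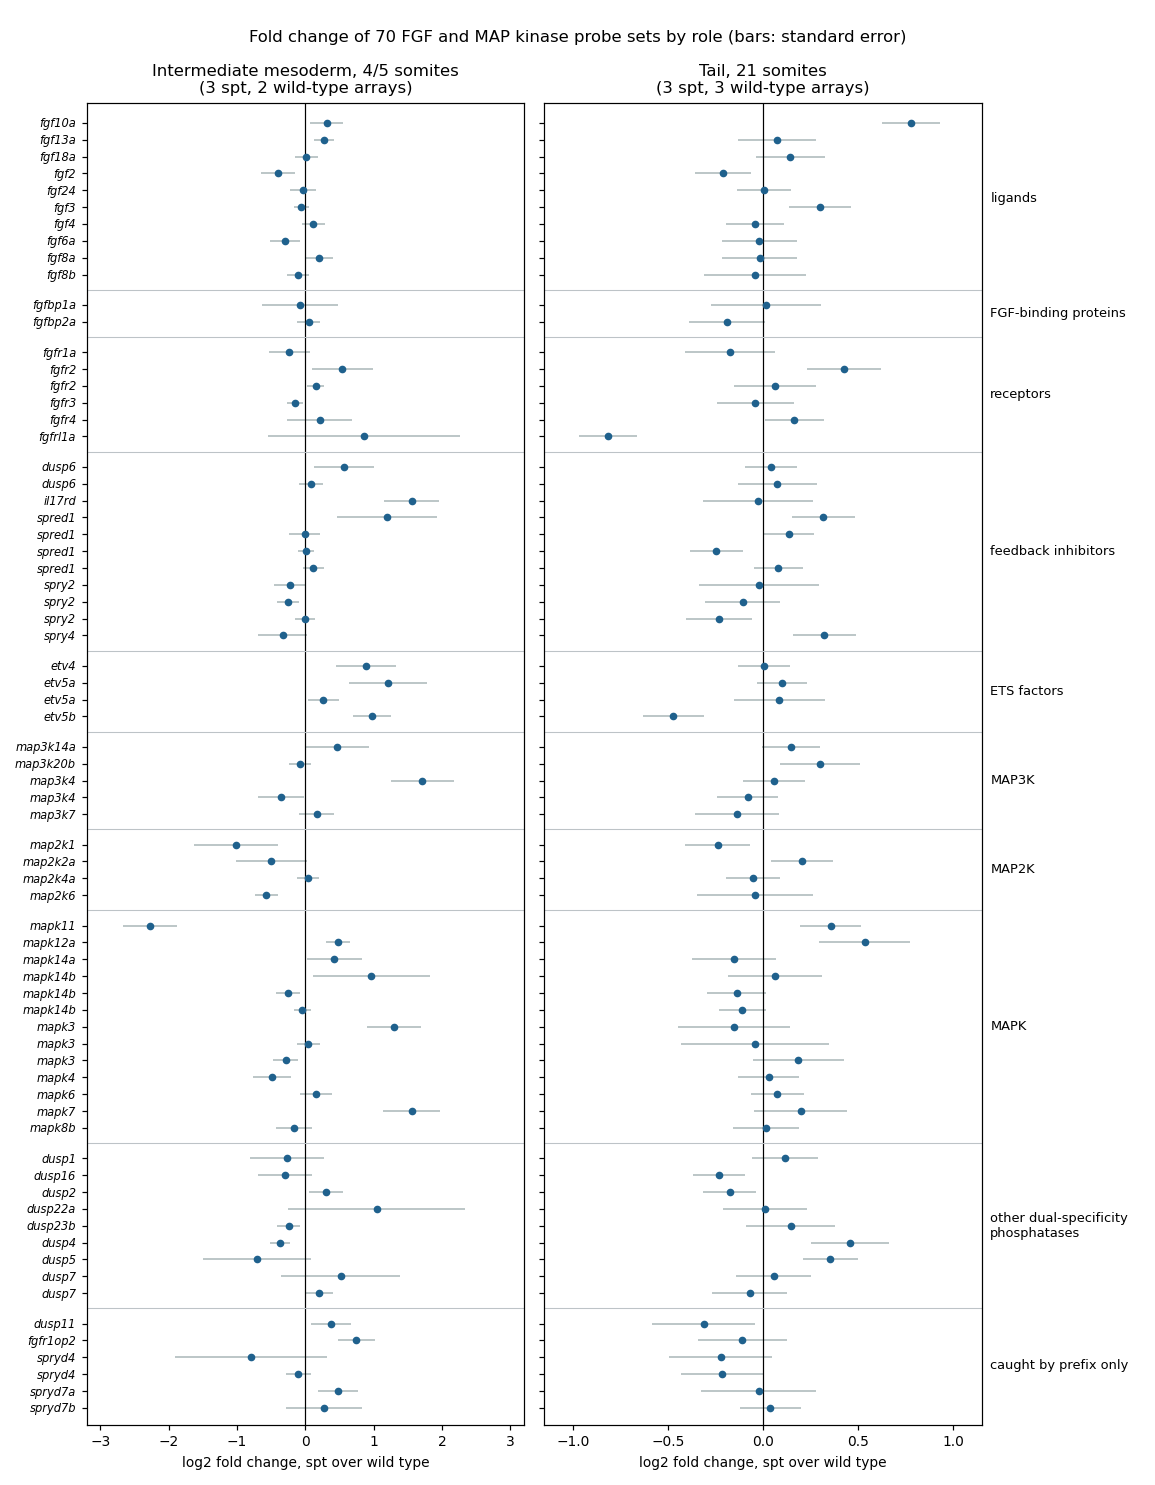
Log2 fold change of spt over wild type (x axis) for each of the 70 probe sets (rows, labelled by gene and grouped by role) in intermediate mesoderm at the left and tail at the right, with standard errors as bars and an axis of its own for each stage. In intermediate mesoderm all 4 ETS factor probe sets lie to the right of 0, between 0.26 and 1.21, and in tail most members lie near 0, with fgf10a at 0.78 and fgfrl1a at -0.81.

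Groups of arrays that did not overlap were counted as well. The 3 spt arrays lay above both wild-type arrays for 14 members (20%) in intermediate mesoderm, against 12.4% of all probe sets, and below both for 6 (8.57%), against 14.5%. The 14 include fgfr1op2 and dusp11, which only share letters with the pathway. In the tail the groups were separate with spt higher for 4 members (5.71%, against 6.01%) and with spt lower for 5 (7.14%, against 6.2%). Signals under 100, a level that the study's own filter treated as too low, were common in the sorted cells. There 47 of the 70 members reached 100 on most arrays, and 63 did so in tail. In bulk tissue, fewer cells of a type and less RNA per cell cannot be told apart, and this holds for every value that follows.

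The ligands showed little difference in intermediate mesoderm. All 10 lay between -0.40 and 0.31 on the log2 scale, 5 higher and 5 lower. The signal of fgf8a, a main FGF of the early posterior mesoderm and of the midbrain-hindbrain boundary, was 201, 189.6 and 239.9 in spt and 181 and 179 in wild type (log2 fold change 0.20, standard error 0.20). The spt arrays were all above wild type, 2 of them by little. In the same cells fgf3, fgf4, fgf8b, fgf13a and fgf18a had signals near or under 100 on every array, where differences are not informative. The signal of fgf24, which acts with fgf8a in posterior mesoderm, was 163, 156 and 194 in spt and 189 and 162 in wild type, and these ranges overlap.

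In the tail, fgf10a stood apart among the ligands. This ligand is known for limb and fin bud outgrowth and for organ buds. Its signal was 534, 586 and 529.8 in spt tails and 327, 339.9 and 278 in wild-type tails. Every spt array lay well above every wild-type array (log2 fold change 0.78, standard error 0.15), but the adjusted p of 0.0712 (limma) missed the threshold. Over the 14 alternatives tried the fold change kept to 0.70 to 0.84 and the adjusted p to 0.0549 to 0.455. In intermediate mesoderm its signals of 229, 164 and 141 in spt and 133 and 143 in wild type overlapped (log2 fold change 0.31, standard error 0.25). The other 9 ligands were within -0.21 and 0.30 in tail. The signal of fgf3, an early posterior and hindbrain ligand, was 268, 271 and 237 in spt and 250.2, 182 and 193 in wild type (0.30, standard error 0.16), where the wild-type array 1 reached into the spt range. For fgf8a the tail gave 651, 607 and 605 in spt, all inside the wild-type range of 689, 769.8 and 467 (-0.02, standard error 0.20). The values of fgf4, fgf8b, fgf24, fgf6a, fgf13a and fgf18a lay between -0.04 and 0.14. For fgf2, the founding ligand of the family, both stages put spt below wild type without overlap, at 120.1, 188 and 123 against 188 and 194 in intermediate mesoderm (-0.40, standard error 0.24) and 172, 204 and 213 against 216, 252 and 219 in tail (-0.21, standard error 0.15). In intermediate mesoderm the spt array 4 and the wild-type array 1 were less than 1 unit of signal apart, and neither difference passed (adjusted p = 0.699 and 0.976, limma). Of the FGF-binding proteins, which carry ligands in the extracellular space, fgfbp1a gave 0.02 and fgfbp2a -0.19 in tail.

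Among the receptors, fgfrl1a had the smallest adjusted p of any member in tail. It encodes an FGF receptor-like protein that binds ligand but has no kinase domain. Its signal was 865, 766 and 645 in spt tails and 1368, 1251 and 1392 in wild-type tails, so that every wild-type array was above every spt array by a wide gap. The log2 fold change was -0.81 (standard error 0.15, adjusted p = 0.0623, limma), which missed the threshold, and over the alternatives the adjusted p was 0.0542 to 1.0. The study had picked this gene from the same tail arrays by its own rule. By in situ hybridization, judged by eye, it reported lower fgfrl1a expression in the tail paraxial mesoderm of spt embryos. Markers of paraxial mesoderm and muscle were lower on the same tail arrays, at 8 of 8 genes with 4 called, and their summed signal was 7884 to 10305 in spt and 15547 to 19113 in wild type. None of them was at 0, and their part in the value of fgfrl1a was not tested. Markers of neural tissue (4 of 4), notochord (3 of 3), epidermis (4 of 4), tailbud (3 of 3) and endothelium (1 of 1) were instead higher in spt tails, with none called. Of 4 intermediate mesoderm and pronephros markers, 3 were higher there, cdh17 with an adjusted p of 0.00298 (limma). The part of these tissues in the members higher in spt tails was not tested. In the sorted cells the same gene scattered by more than any other receptor, with 2149.6, 670.0 and 62.8 on the 3 spt arrays around 269.8 and 238 in wild type (0.86, standard error 1.41), and no direction can be given.

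None of the kinase receptors passed in either stage. The signal of fgfr4 was 2656, 2310.2 and 2218 in spt tails and 2511, 2242 and 1709 in wild-type tails, and 748, 995 and 1204 in spt and 1244 and 556 in wild-type intermediate mesoderm. In both tissues the ranges overlap, with log2 fold changes of 0.17 (standard error 0.16) in tail and 0.21 (standard error 0.47) in intermediate mesoderm. The brighter of the fgfr2 probe sets was 888, 909 and 706 in spt tails and 727, 481 and 659 in wild-type tails (0.43, standard error 0.19), and the other gave 0.06 (standard error 0.22). On the brighter probe set the wild-type array 1 reached into the spt range, and neither probe set passed. In intermediate mesoderm the brighter one read 281, 220 and 286 in spt and 104 and 288 in wild type, with overlap (0.54, standard error 0.45). The other was under 100 on all of these arrays and higher in spt without overlap (0.15, standard error 0.13). The values of fgfr1a, the receptor most tied to early mesoderm, were -0.24 (standard error 0.30) in intermediate mesoderm and -0.17 (standard error 0.24) in tail, and those of fgfr3 were -0.15 and -0.04.

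The ETS factors, which are read as output of the pathway, were all higher in spt intermediate mesoderm, at 4 of 4 probe sets, where 49.1% of all probe sets were higher. These probe sets stand for 3 genes and were read on the same arrays, so they are not independent. For etv5b the signal was 3438, 3386 and 5326 in spt and 1892 and 2128 in wild type. Every spt array was above both wild-type arrays, by 0.97 on the log2 scale (standard error 0.28, adjusted p = 0.62, limma). For etv4 the values were 540.3, 391 and 886 in spt and 272 and 335 in wild type (0.89, standard error 0.44), again without overlap. The brighter etv5a probe set gave 1097, 1864 and 2059.6 in spt and 408 and 1156 in wild type (1.21, standard error 0.57), where the wild-type array 2 exceeded the lowest spt array. Without the wild-type array 1 this value was 0.48. The dimmer etv5a probe set gave 0.26 (standard error 0.22). None of the 4 passed (smallest adjusted p = 0.62).

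In the tail the ETS factors did not share a direction. The signal of etv5b was 1430.1, 1172 and 1679.5 in spt and 1899.6, 1798 and 2218 in wild type, and here every spt array was below every wild-type array (log2 fold change -0.47, standard error 0.16, adjusted p = 0.425, limma). The other genes were level, with etv4 at 1617, 1603 and 1905 in spt and 1665, 1935 and 1517 in wild type (0.00, standard error 0.14) and the brighter etv5a probe set at 0.10 (standard error 0.13). The tail difference of etv5b minus its difference in intermediate mesoderm was -1.45 (standard error 0.32, adjusted p = 0.097, limma), the second smallest adjusted p among members in this test and over the threshold.

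The feedback inhibitors were uneven. For il17rd (Sef), a membrane protein that damps FGF signalling at the receptor and below, the signal was 302, 126 and 276 in spt and 73.6 and 56.3 in wild-type intermediate mesoderm. The wild-type arrays were both under 100 and the spt arrays all over it (log2 fold change 1.56, standard error 0.40, adjusted p = 0.585, limma). In tail, 1215, 1469.8 and 1542 in spt lay inside the wild-type range of 1547, 2173 and 866 (-0.03, standard error 0.29). The brighter probe set of dusp6, the cytoplasmic phosphatase of ERK, was 1785, 951 and 845 in spt and 695 and 821 in wild-type intermediate mesoderm. Here the groups did not overlap, but the lowest spt array was close to the higher wild-type array, and most of the difference came from the spt array 3 (0.57, standard error 0.44). The other dusp6 probe set read 112, 122 and 84.3 in spt and 97.2 and 99.3 in wild type, with overlap (0.08, standard error 0.18). In tail the brighter probe set was 1862, 1957 and 2168 in spt and 2168, 2017 and 1647 in wild type (0.04, standard error 0.14), with overlap.

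The Sprouty and Spred genes did not follow il17rd. The signal of spry4, an inhibitor of RAS activation, was 263, 241 and 129 in spt and 237 and 283 in wild-type intermediate mesoderm (-0.33, standard error 0.36) and 1834, 1683 and 1609 in spt and 1646, 1089.8 and 1404 in wild-type tails (0.32, standard error 0.16). The groups overlap in both tissues. The 3 probe sets of spry2 lay between -0.25 and -0.01 in intermediate mesoderm and between -0.23 and -0.02 in tail. Among the 4 probe sets of spred1, which also blocks RAF activation, only the brightest was far from 0 in intermediate mesoderm, with 1351, 328 and 662 in spt and 446 and 177 in wild type (1.19, standard error 0.73). The spt array 4 was below the wild-type array 1, and the other 3 probe sets gave -0.01 to 0.11. In tail the 4 probe sets ranged between -0.25 and 0.32. None of the feedback inhibitors passed in tail (smallest adjusted p = 0.796).

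**Figure D2:**
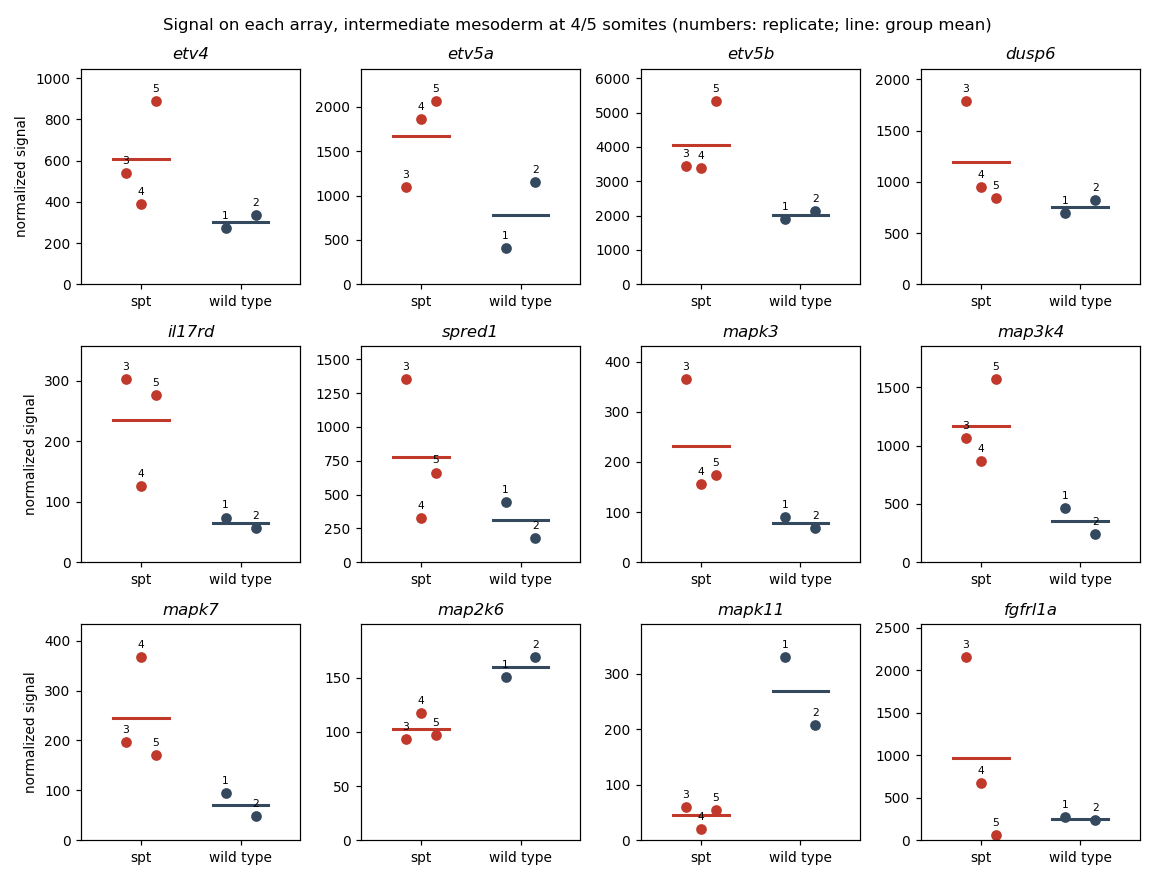
Normalized signal (y axis, linear, from 0) on each array of the 4/5-somite intermediate mesoderm for 12 members, with spt at the left and wild type at the right, replicate numbers beside the points and lines at the group means. For etv5b, il17rd, mapk3, map3k4 and mapk7 all spt points lie above wild type, for map2k6 and mapk11 all lie below, and for fgfrl1a the spt points range between 62.8 and 2150 around wild type.

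Of the MAP3K genes, map3k4 had the highest fold change of all members in intermediate mesoderm. It encodes an upstream kinase mainly of the p38 and JNK branches. Its brighter probe set was 1067, 871 and 1568 in spt and 463 and 241 in wild type, with no overlap (log2 difference 1.71, standard error 0.46, adjusted p = 0.619, limma). Its other probe set read 117, 241 and 128 in spt and 204 and 198 in wild type, with overlap (-0.35, standard error 0.34). It did not share the rise of the brighter one, so the gene has no settled direction. In tail both were near 0 (0.06 and -0.08). The remaining MAP3K genes were map3k7 (TAK1), at 0.16 and -0.13 in the order of the stages, map3k14a (NIK, a kinase of NF-kB signalling), at 0.46 and 0.15, and map3k20b, at -0.08 and 0.30.

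Of the 4 MAP2K probe sets, 3 were lower in spt intermediate mesoderm, where 7897 of the 15502 probe sets tested were lower. For map2k6, an activator of p38, the signal was 93.6, 117 and 97 in spt and 151 and 169 in wild type. All spt arrays were below wild type, over a range close to 100 (-0.57, standard error 0.16, adjusted p = 0.62, limma). For map2k1 (MEK1), which activates ERK, the spt signals of 544, 1877 and 627 scattered around 1707 and 1833 in wild type, and the spt array 4 was the highest of all (-1.02, standard error 0.61). The other ERK activator, map2k2a (MEK2), was 127, 71.9 and 88.7 in spt and 256 and 72.2 in wild type (-0.50, standard error 0.52), and without the wild-type array 1 this value was 0.31. In tail all 4 lay between -0.24 and 0.21. There map2k6 was 485, 884 and 975 in spt and 521, 948 and 926 in wild type, low on the spt array 4 and the wild-type array 1 that deviated together, and level between genotypes (-0.04, standard error 0.31).

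Among the MAP kinases, mapk11, a p38 kinase (p38 beta), had the largest difference and the smallest adjusted p in intermediate mesoderm. The signal was 59.5, 19.9 and 54.1 in spt and 329.7 and 208 in wild type. Both wild-type arrays were above 200 and every spt array was below 100, a level that dim probe sets share (log2 difference -2.27, standard error 0.40, adjusted p = 0.383, limma). Because the spt signals are so low, the size depends on the constant added before the logarithm, and it was -2.68 with 1 and -1.61 with 64 in place of 16. In tail all 6 arrays were below 100, with 65.2, 53.7 and 57 in spt and 54.7, 41.1 and 32.7 in wild type (0.36, standard error 0.16). The related p38 gene mapk12a (p38 gamma) was instead higher in spt at both stages, with 126, 89.2 and 117 against 73.6 and 74.5 in wild-type intermediate mesoderm (0.48, standard error 0.17) and 389, 364 and 383 against 268, 363 and 172 in wild-type tails (0.54, standard error 0.24). Groups did not overlap at either stage, although the lowest spt tail exceeded the wild-type array 2 by less than 1 unit of signal (adjusted p = 0.684 and 0.685, limma). The p38 alpha gene mapk14a was at 0.42 (standard error 0.41) in intermediate mesoderm and -0.15 in tail. The brightest of 3 probe sets of mapk14b, the other p38 alpha gene, read 735, 117 and 160.1 in spt and 71.9 and 187 in wild-type intermediate mesoderm (0.96, standard error 0.85). The others gave -0.26 (standard error 0.18) and -0.05 (standard error 0.12). The dimmest was lower in spt without overlap at both stages, by less than its standard error in each.

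Of the ERK genes, mapk3 (ERK1) had 3 probe sets that did not agree. The brightest was 365, 157 and 174 in spt and 89.8 and 68.5 in wild-type intermediate mesoderm, without overlap (1.30, standard error 0.39, adjusted p = 0.647, limma). The others gave 0.05 (standard error 0.17) and -0.29 (standard error 0.18). In tail all 3 lay between -0.15 and 0.19 with standard errors of at least 0.24, and the spt array 4 and the wild-type array 1 were lowest in their groups on each. For mapk7 (ERK5), a large kinase with its own MAP2K, the signal was 196, 367 and 171 in spt and 94.7 and 48.3 in wild-type intermediate mesoderm, where both wild-type arrays were under 100 (1.55, standard error 0.41, adjusted p = 0.614, limma). In tail it was 167, 145 and 178 in spt and 177, 86.7 and 174 in wild type, with overlap (0.20, standard error 0.24). The JNK gene mapk8b was at -0.17 and 0.02, and the atypical kinases mapk4 (ERK4) and mapk6 (ERK3) at -0.48 and 0.16 in intermediate mesoderm and 0.03 and 0.08 in tail.

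**Figure D3:**
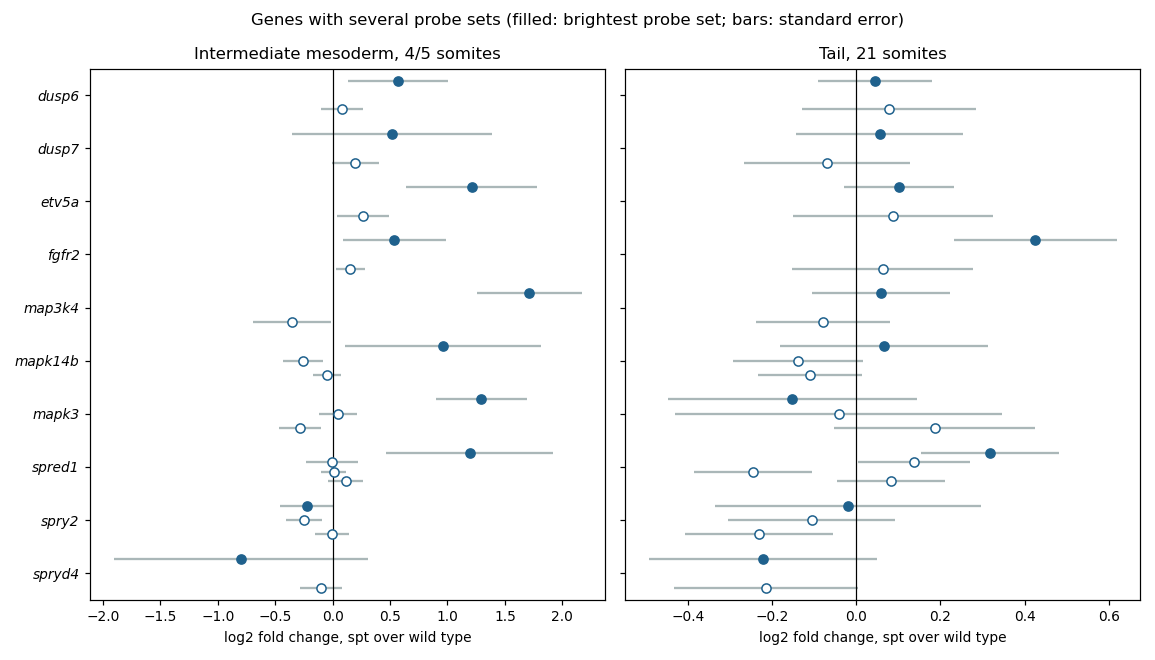
Log2 fold change of spt over wild type with its standard error (x axis, an axis of its own for each stage) for the 25 probe sets of the 10 genes that have more than 1, with filled points for the brightest probe set of a gene and open points for the others. In intermediate mesoderm the brightest probe sets of map3k4, mapk3, spred1 and etv5a lie between 1.19 and 1.71, and the open points of these genes between -0.35 and 0.26.

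The probe sets of a gene bear on how far these values can be trusted. Of the 10 genes with more than 1 probe set, 4 had probe sets of unlike sign in intermediate mesoderm and 5 in tail. Some of these signs come from values within 1 standard error of 0. Examples are spred1 at -0.01 in intermediate mesoderm and map3k4 at 0.06 and -0.08 in tail. Dim probe sets, such as those of spred1 with signals under 100, are a weak check on a brighter one. The genes etv5b, il17rd, mapk7 and mapk11 have 1 probe set each and could not be checked in this way.

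Among the other dual-specificity phosphatases, which remove phosphates from MAP kinases, dusp4 and dusp5 had the largest differences in tail. Both act on ERK in the nucleus. The signal of dusp5 was 508, 439 and 437 in spt and 357, 343 and 369.8 in wild-type tails, without overlap (0.35, standard error 0.15, adjusted p = 0.61, limma), and 305, 502 and 90.9 in spt and 262 and 642 in wild-type intermediate mesoderm, where the range of either group was wider than the difference. The signal of dusp4 was 111, 189 and 173 in spt and 90.3, 110.3 and 125 in wild-type tails (0.46, standard error 0.20). The spt array 4 lay within the wild-type range. In intermediate mesoderm dusp4 was under 100 on all arrays and lower in spt (-0.37, standard error 0.15). The signal of dusp1, which is induced by stress and growth factors, was 590.3, 477 and 897 in spt and 1215 and 479 in wild-type intermediate mesoderm (-0.27, standard error 0.54), and the groups overlap. For dusp22a the spt array 3 alone had a high signal, with 934, 44.9 and 49.3 in spt and 59.3 and 60 in wild type. The phosphatase of JNK and p38, dusp16, was lower in all spt tails, with 341, 325 and 327 against 397, 390.5 and 386 in wild type (-0.23, standard error 0.14). For dusp2, dusp7 and dusp23b the tail values were between -0.18 and 0.15. Of the genes that share only a prefix, fgfr1op2 read 378, 320.4 and 442 in spt and 218 and 218 in wild-type intermediate mesoderm (0.75, standard error 0.27) and -0.11 in tail.

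**Figure D4:**
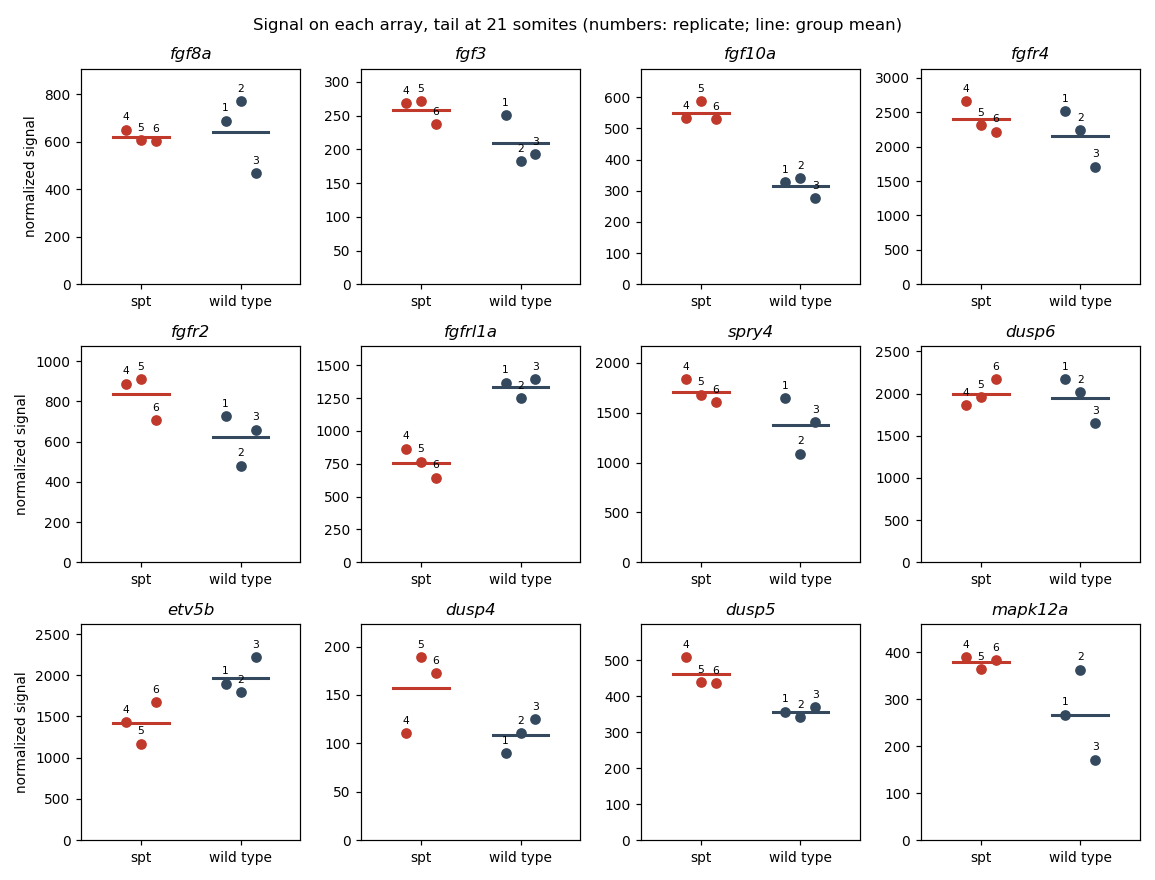
Normalized signal (y axis, linear, from 0) on each array of the 21-somite tail for 12 members, with spt at the left and wild type at the right, replicate numbers beside the points and lines at the group means. The groups are clear of each other for fgf10a and dusp5 with spt higher and for fgfrl1a and etv5b with spt lower, while fgf8a, fgfr4 and dusp6 overlap.

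Whether the difference between spt and wild type was itself unlike at the 2 stages was tested as an interaction over all 11 arrays, which takes 1 spread for both stages. Stage, tissue and RNA amplification cannot be told apart in it. Of the 70 members, 1 passed (1.43%, beside 0.484% of all probe sets), and this was mapk11. Its tail difference exceeded that in intermediate mesoderm by 2.63 on the log2 scale (standard error 0.42, adjusted p = 0.0251, limma). The call rests on a signal that was above 100 on only 2 of the 11 arrays, the wild-type intermediate mesoderm. It was lost without the wild-type intermediate mesoderm array 1 (adjusted p = 0.0515) and without any 1 of the 6 tail arrays (0.0592 to 0.0914), while the difference itself was 1.82 to 3.15 over 17 alternatives. At an unadjusted p under 0.05, 2 members (2.86%, against 4.41% of all probe sets) had the higher value in tail, mapk11 and dusp4, and 5 (7.14%, against 4.87%) the lower one, il17rd, mapk3, map3k4, mapk7 and etv5b. For these 5 the values were -1.58, -1.45, -1.65, -1.36 and -1.45 in that order, with adjusted p of 0.097 to 0.454 (limma). The direction was shared by both stages for 38 of 70 members (54.3%), beside 55.3% of all probe sets.

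**Figure D5:**
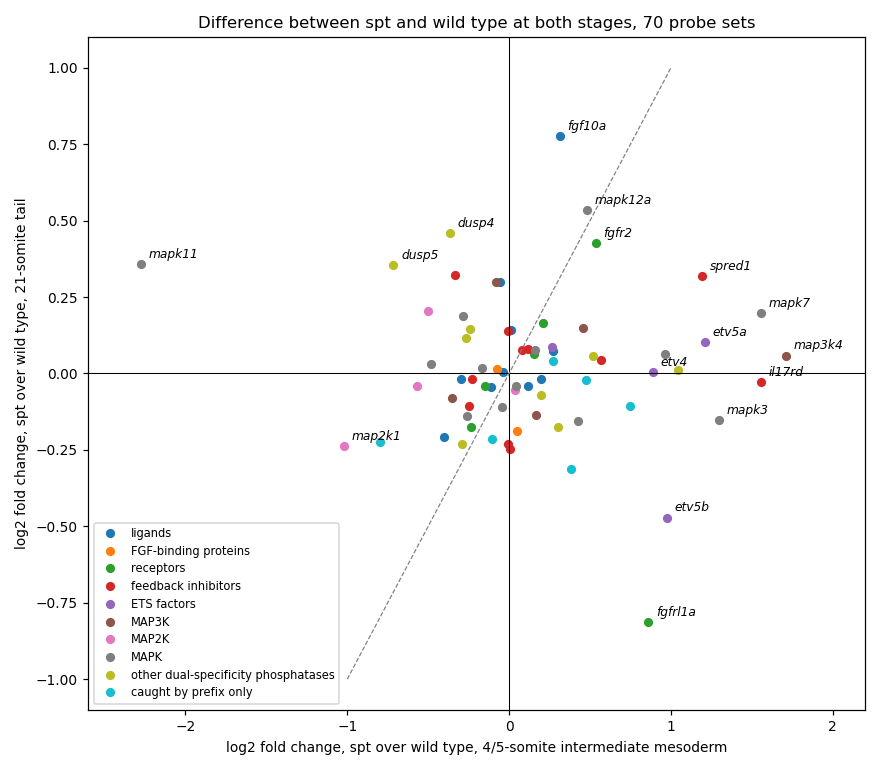
Log2 fold change of spt over wild type in 4/5-somite intermediate mesoderm (x axis) and in 21-somite tail (y axis) for the 70 probe sets, coloured by role, with a dashed line where both would be equal. The points spread further along the x axis than along the y axis, mapk11 stands alone at -2.27 and 0.36, and etv5b lies at 0.97 and -0.47.

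The level of the members in wild type also differed between the tissues, as a description only, since the stages were normalized apart. Of the 70 members, 58 (82.9%) were brighter in tail than in intermediate mesoderm, with a median log2 difference of 0.99, beside 66.6% and 0.40 for all probe sets. The probe set of il17rd read 1547, 2173 and 866 in wild-type tails and 73.6 and 56.3 in wild-type intermediate mesoderm, and that of etv4 1665, 1935 and 1517 in tails and 272 and 335 in intermediate mesoderm. All 11 probe sets of the feedback inhibitors and 9 of the 10 ligands were brighter in tail.

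Genes of the pathway that carry other names were followed as lists, each gene by its brightest probe set. Of 16 transducers between receptor and RAF, 10 were higher and 6 lower in spt intermediate mesoderm (median 0.15) and 11 higher and 5 lower in tail (median 0.07), and none passed. The kinase araf, which acts directly above MAP2K, read 605, 571 and 435 in spt and 164 and 74.9 in wild-type intermediate mesoderm, without overlap (2.10, standard error 0.39, adjusted p = 0.453, limma), and was level in tail (0.08). Of 18 enzymes that build or trim the heparan sulfate coreceptor, none passed in either stage (medians 0.02 in intermediate mesoderm and 0.05 in tail). That list holds 3 extracellular sulfatases, and sulf1 and sulf2b did not overlap between genotypes in intermediate mesoderm, with opposite directions. Elsewhere in the list hs6st2 was also higher in spt without overlap, and papss2b and ext1c were lower without overlap. Over all probe sets 12.4% were higher and 14.5% lower without overlap. The signal of sulf1 was 322, 906 and 1865 in spt and 93.4 and 163 in wild type (2.58, standard error 0.78), and that of sulf2b 31.8, 27 and 27.5 in spt and 2641 and 1016 in wild type (-5.21, standard error 0.43, adjusted p = 0.091, limma). The spt signals of sulf2b are those of dim probe sets, so the size depends on the constant added, and it was -5.79 with 1 and -4.20 with 64 in place of 16. For sulf2a every signal was under 100, with 68.7, 54.4 and 60.2 in spt and 58.2 and 63.2 in wild type, and the groups overlapped.

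Of 33 ERK effectors and immediate-early genes, 13 were higher and 20 lower in spt intermediate mesoderm (median -0.13) and 22 higher and 11 lower in tail (median 0.03), and none passed. At an unadjusted p under 0.05, 4 of the 33 were lower in tail and 1 higher, beside 3.54% and 3.91% of all probe sets. The 4 were myca (-0.92, standard error 0.18, adjusted p = 0.0755, limma), mycb (-0.72), mych (-0.69) and plk3 (-0.51), and the 1 was jun (0.38). The zinc finger gene egr2a read 27.3, 32.8 and 28.3 in spt and 509 and 333 in wild-type intermediate mesoderm (-3.24, standard error 0.21, adjusted p = 0.0634, limma). The kinase gene plk2b read 58.1, 69.5 and 79.4 in spt and 1689 and 878 in wild type (-3.87, standard error 0.35). For both genes every spt array was below 100, and with 1 and 64 as the constant the log2 fold change was -3.76 and -2.35 for egr2a and -4.13 and -3.28 for plk2b. The 4 marker genes of neural tissue did not share a direction in the sorted cells. The signal of sox3 was 2771, 2986 and 3863 in spt and 5946 and 4290.2 in wild type, and it made up most of their summed signal, which was 3734 to 4861 in spt and 5769 to 6749 in wild type. The signal of sox2 was instead higher in spt without overlap, with 443, 412 and 685 against 217 and 270.4 in wild type. The groups overlapped for elavl3 and neurog1, no marker was at 0 or passed the test, and their part in these values was not tested.

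A list of 20 genes known to respond to FGF signals holds mesoderm genes and others, such as gbx2 and dlx3b, that are not mainly mesodermal. Of these 20, 8 were higher and 12 lower in spt intermediate mesoderm (median -0.10), and none passed. At an unadjusted p under 0.05 and a signal of at least 100, gbx2 was higher, with 956, 1208 and 1013 in spt and 232 and 355 in wild type (1.82, standard error 0.35), and mespba (-1.08, standard error 0.17) and msgn1 (-1.66, standard error 0.41) were lower. In tail 7 were higher and 13 lower (median -0.09), and 4 fell, where 0.69% of all probe sets were called in either direction. Of the 4, 1 is the mutated gene tbx16 itself. The others were its relative tbx16l, with 626, 707 and 796 in spt and 1511, 1673 and 1159 in wild-type tails (adjusted p = 0.045, limma), and the segmentation genes mespba (log2 fold change -1.12, standard error 0.16, adjusted p = 0.0174, limma) and mespaa, with 213, 198 and 217 in spt and 473, 443 and 388 in wild-type tails (adjusted p = 0.018, limma). The signal of mespba was 248, 241 and 208 in spt tails and 611, 471 and 495 in wild-type tails, and no spt array came near the wild-type range. These genes mark paraxial mesoderm, and mespaa and mespba are among the 8 paraxial and muscle markers given above, all of which were lower in spt tails. Earlier work cited by the study, on whole embryos of another stage, had already found msgn1 and mespaa (there mespa) lowered in spt. Both are in this list. That work also named tbx6, and which gene of the present list carried that name then was not checked. The count of 4 therefore cannot be read as a response to FGF signals.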

How the data were processed

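Expression was measured on 11 single-colour Affymetrix Zebrafish Genome Arrays, grouped by the genotype and stage in their labels. The intensity values deposited by the authors came out of MAS5 5.0 (Affymetrix Microarray Suite) and are linear, 1 for each array and probe set, with replicates kept apart. The values had been scaled between arrays by a method that is not given in the sources used here for the deposited values. A further wild-type intermediate mesoderm array that the authors set aside was not used here, and no column of sample values in the table was left unused. Of 15617 probe sets, 115 controls were left out. Of the other 15502, 10795 had 1 gene symbol in the platform annotation, 135 several and 4572 none, and 1 probe set with several symbols, of which only some fit the rule, is no member. Updating symbols through a gene table altered none of the 70 members.

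Each stage was quantile normalized on its own, an offset of 16 was added before taking log2, and lmFit and eBayes of limma 3.58.1 under R 4.3.3 were run with the trend option and without covariates. P-values were adjusted by Benjamini and Hochberg over all 15502 probe sets, and the threshold was 0.05. The interaction was fitted over all 11 arrays. The fits were tested on simulated data. Python 3.11.15 with pandas 2.3.3 and matplotlib 3.10.9 was used for the summaries. A gene is represented by the probe set with the highest mean over all arrays. The members, lists and tests were chosen with earlier results of these data known. Named are the members past the threshold, those at an unadjusted p under 0.05 and a signal of at least 100 in intermediate mesoderm, the core ligands, receptors, inhibitors and kinases whatever their values, fgfrl1a, which the study followed up by in situ hybridization, and the 2 smallest p per role and stage. Others (fgf6a, fgf18a, dusp16, dusp22a, mapk14b and the like) were named after their values were seen. Alternatives were no quantile normalization, quantile normalization over all 11 arrays, offsets of 1 and 64, a filter at a signal of 100, no variance trend, all 11 arrays in 1 fit, the study's rule, which asks for an unadjusted p under 0.05 and a minimum fold of 1.5 at 4/5 somites and 1.25 at 21 somites, members without cross-hybridizing probe sets and leaving out each array. Arrays have no read depth, and their number and the signal over background limit the precision. A signal of 100 was reached by 67.6% to 71.1% of probe sets on the intermediate mesoderm arrays and by 80.8% to 84.8% on the tail arrays.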

Additional observations from a re-analysis of the deposited data

Results flagged for a closer look

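The difference between spt and wild type was unlike at the 2 stages for mapk11 by the interaction test (limma, adjusted p = 0.0251). The log2 fold change of spt over wild type in tail minus that in intermediate mesoderm was 2.63, with log2 fold changes of -2.27 in intermediate mesoderm and 0.36 in tail, every spt array lower than wild type in intermediate mesoderm and a signal below 100 on all tail arrays. No group had enough arrays to look for single outlying arrays.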

How the results depend on the processing

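In intermediate mesoderm the count of members with an adjusted p under 0.05 was 0, and it was 2 (map3k4 and mapk11) with all 11 arrays in 1 fit (2.86% of members and 2.18% of all probe sets). It was 7 (10% and 5.8%), fgfr1op2 among them, under the study's rule of an unadjusted p with a fold of at least 1.5. In tail the count of 0 became 4 (etv5b, fgf10a, dusp5 and fgfrl1a, 5.71% of members and 7.01% of all probe sets) under the study's rule for that stage. The count for the difference between stages was 1 (mapk11), and it was 0 with the filter at a signal of 100, which removes mapk11, and 0 with both the wild-type tail array 1 and the spt tail array 4 left out, an alternative chosen after seeing the data. Leaving out 1 array at a time gave 0 to 2 for it, with 0 without the wild-type intermediate mesoderm array 1 or any 1 tail array and 2 (etv5b and mapk11) without the spt intermediate mesoderm array 4. Leaving out arrays gave 0 in each stage on its own. Where 1 wild-type intermediate mesoderm array was left, it was assumed to vary like the spt arrays. Among the fold changes of named members, 9 of 445 alternative values in intermediate mesoderm and 44 of 531 in tail had the opposite sign. No paired analysis was possible because the groups compared share no replicate number, if pairs are taken from the labels. The tail arrays that deviated together (r = 0.767, 0.483 and 0.43) could have served as blocks instead, but no block was fitted. Whether such a block would alter the tail standard errors or the tail count of 0 was not tested. Signals under 100 limit 23 members in intermediate mesoderm and 7 in tail.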
